A study of Arabidopsis thaliana with 8 samples.

Results

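The 9 genes described here encode the main photoreceptors of Arabidopsis thaliana: the phytochromes PHYA (AT1G09570), PHYB (AT2G18790), PHYC (AT5G35840), PHYD (AT4G16250) and PHYE (AT4G18130), the cryptochromes CRY1 (AT4G08920) and CRY2 (AT1G04400), and the phototropins PHOT1 (AT3G45780) and PHOT2 (AT5G58140). They were taken by locus identifier, 9 of the 27444 protein-coding genes on chromosomes 1 to 5 in the RefSeq copy of the TAIR10 assembly. The assay was miCLIP-seq, which crosslinks RNA to an antibody against N6-methyladenosine (m6A), a modified base of messenger RNA, and sequences what the antibody retains. Both groups were ecotype Col-0: wild type, and ABI3:MTA, called mta, which carries the MTA methyltransferase gene under the ABI3 promoter, a promoter known for its activity in seeds and embryos. The labels name no further allele of either group. Leaves 5 to 9 came from plants 4 weeks old kept in days of 16 h light and 8 h dark at 22 °C, cut 4 h after lights came on, and each group had 2 m6A-bound libraries. Whether these came from separate plants is not stated, so the spread between replicates may be technical. The data are lists of peaks, regions called as bound in 1 library, and a peak was given to a gene when its midpoint lay in an exon on the same strand.

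Phytochromes sense red and far-red light through a bilin chromophore and, once activated, enter the nucleus and bind PIF transcription factors. Cryptochromes are flavoproteins that sense blue light and restrain the COP1-SPA ubiquitin ligase, while phototropins are blue-light-activated protein kinases at the plasma membrane that steer phototropism, chloroplast movement and stomatal opening. MTA is the catalytic subunit of the complex that writes m6A on messenger RNA, where the mark is known to lie mainly around the stop codon and in the 3' untranslated region (3' UTR).

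List length was 8973 for wild-type replicate 1 and 6584 for replicate 2, whereas the mta lists had 1934 and 2092 entries (exact two-sided permutation p = 0.33, the smallest that 2 libraries against 2 allow). With scores of at least 50 the lists held 4517, 647, 322 and 1171 peaks in the same order, so wild-type replicate 2 then had fewer than mta replicate 2 and the difference was no longer one between groups that do not overlap (exact two-sided permutation p = 0.67). Score scales were unlike between lists: the median and highest score were 29 and 58 in wild-type replicate 2 and 52 and 203 in mta replicate 2. The lowest score was 20 in mta replicate 2 and 13 in the other 3 lists, and peak names in mta replicate 2 were built differently; whether that list was called with the same settings is not given in the sources used here, and its part in the absence of mta peaks was not tested. List length is the only measure of yield, since the files hold no read counts, and a shorter list leaves fewer genes with a peak. RNA levels were not measured in these lists. A gene with no peak may therefore have little RNA or little bound RNA, and in whole leaves fewer cells with a transcript and less of it per cell cannot be told apart. Markers of leaf tissue could not be checked for the same reason.

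Peaks were called at 5 of the 9 photoreceptor genes, PHYA, PHYB, CRY1, PHOT1 and PHOT2, and at 0 of the 9 in either mta library. All 5 were called in wild-type replicate 1 (55.6% of the 9), where 27.1% of all protein-coding genes did. In wild-type replicate 2 PHYB, CRY1 and PHOT1 had one (33.3%), beside 20.3% of all genes. PHYC, PHYD, PHYE and CRY2 had no peak in any of the 4 libraries. Each gene with a peak had exactly 1 in a library, which made 8 peaks in all.

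**Figure D1:**
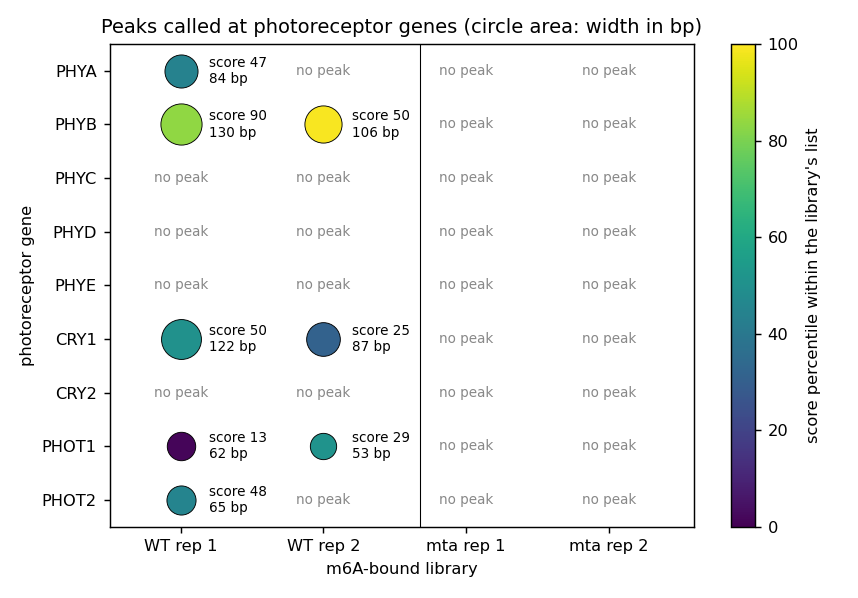
Peaks at the 9 photoreceptor genes (rows) in the 4 m6A-bound libraries (columns). Circle area is proportional to peak width in bp and colour gives the percentile of the authors' peak score within that library's list; PHYB, CRY1 and PHOT1 were called in both wild-type libraries, PHYA and PHOT2 in replicate 1 alone, and all mta cells are empty.

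All 8 peaks lay in 3' UTRs. The short sequences below are the motif matches inside these peaks, with 10 bases on either side, shown to place the motifs within the bound stretches. The peak lists do not show which base is modified. The sequences come from the RefSeq TAIR10.1 genome and read 5′ to 3′ on the strand of the gene. Capitals mark RRACH, the textbook m6A consensus (A or G, A or G, A, C, then A, C or T), or, where stated, URUAY, a plant motif reported near m6A (T, A or G, T, A, then C or T in DNA letters).
PHYA, chr1:3095347-3095371, minus strand: atcttctgttGAACTcttttctgaa
PHYB first match, chr2:8144324-8144348, plus strand: gagaatttcaAGACTtttgtttgtg
PHYB second match, chr2:8144364-8144388, plus strand: actccgagagAAACAaaacaatgag
PHYB last match, chr2:8144369-8144393, plus strand: gagagaaacaAAACAatgagataag
CRY1, peak of replicate 2, chr4:5727024-5727048, plus strand: ggctggagagAAACTatgtaggagt
CRY1, peak of replicate 1, chr4:5727124-5727148, plus strand: ttgtggtattAGACCaggtctcata
CRY1, URUAY in both peaks, chr4:5727047-5727071, plus strand: gtttgtctgaTGTACattttttatt
CRY1, further URUAY in both peaks, chr4:5727092-5727116, plus strand: tataatacacTGTATagtaagtagt
PHOT1, chr3:16823995-16824019, plus strand: gaattgtttgAAACTctttgttctc
PHOT2, URUAY, chr5:23530060-23530084, plus strand: aaggtgttgtTGTACttgtagttgc

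PHYB, the dominant red-light receptor of light-grown plants, had the highest-ranked peak of the photoreceptors in both wild-type libraries. The peak lay on chromosome 2 from 8144276 to 8144405 in replicate 1, 130 bp wide, and from 8144288 to 8144393 in replicate 2, 106 bp wide. The authors' score was 90 and 50, at or above 83.3% and 99.0% of the peaks of the respective list. In replicate 2 the 99.0% includes many ties: 647 peaks scored at least 50, and PHYB, at 50, had rank 67 from the top. Scores are used here to rank peaks within a list, since their scales differ between lists. In both libraries the midpoint fell on the same base, 190 nt past the stop codon of a 3' UTR of 310 nt; in the transcript with the longer 3' UTR, of 781 nt, it was 692 nt past the stop codon. Peaks covered 130 and 106 bases in the wild-type libraries and 0 in each mta library (118 ± 16.97 against 0 ± 0, SD, n = 2 each; exact two-sided permutation p = 0.33, the smallest possible). The groups did not overlap. PHYB was also the only one of the 9 called in both wild-type libraries when every list was cut to the 1934 peaks of the shortest, and again with scores of at least 50, a threshold that keeps unlike shares of the lists. The PHYB score in replicate 2 equals that threshold.

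The 3 RRACH matches of the PHYB 3' UTR all lay inside the bound stretch of both libraries. They began 183, 223 and 228 nt past the stop codon, and the last 2 directly follow each other. The first, AGACT, lay next to the peak midpoint. The 2 URUAY matches, which began 26 and 34 nt past the stop codon, lay outside the peaks.

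CRY1, the cryptochrome that acts in strong blue light, had overlapping peaks in both wild-type libraries. They ran on chromosome 4 from 5727036 to 5727157 in replicate 1 and from 5727030 to 5727116 in replicate 2, with midpoints 192 and 168 nt past the stop codon of a 363-nt 3' UTR. Scores were 50 and 25, at or above 50.1% and 31.1% of the peaks of those lists, so CRY1 ranked in the middle or lower. The bases covered were 122 and 87 in the wild-type libraries and 0 in each mta library (104.5 ± 24.7 against 0 ± 0, SD, n = 2 each; exact two-sided permutation p = 0.33). Of the 8 RRACH matches in this 3' UTR, 0 lay in the 81 nt that both peaks shared; AAACT at 129 nt was inside the replicate 2 peak alone, and AGACC at 229 nt inside the replicate 1 peak alone. Of the 5 URUAY matches in this 3' UTR, those at 152 and 197 nt lay in the shared stretch. Those at 307, 346 and 348 nt lay outside both peaks.

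PHOT1, the phototropin needed for phototropism in dim blue light, had the peaks nearest the stop codon. They ran on chromosome 3 from 16823982 to 16824043 in replicate 1 and from 16823988 to 16824040 in replicate 2, with midpoints 53 and 54 nt past the stop codon of a 250-nt 3' UTR. The score of 13 in replicate 1 is the lowest that list holds, and the score of 29 in replicate 2 was at or above 51.4% of its list. Peaks covered 62 and 53 bases in the wild-type libraries and 0 in each mta library (57.5 ± 6.36 against 0 ± 0, SD, n = 2 each; exact two-sided permutation p = 0.33). With scores of at least 20, PHOT1 had a peak in replicate 2 alone. Of its 2 RRACH matches, AAACT at 45 nt lay inside both peaks and the GGACT that begins at 6 nt lay outside.

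PHYA, the far-red receptor that is abundant in the dark, and PHOT2, the phototropin of strong blue light and of chloroplast avoidance, were called in wild-type replicate 1 and in no other library. The PHYA peak lay on chromosome 1 from 3095320 to 3095403 (84 bp, score 47, at or above 44.2% of the list), with its midpoint 136 nt past the stop codon of a 295-nt 3' UTR. Of its 3 RRACH matches, the GAACT that begins at 137 nt lay inside the peak and the other two outside. The bases covered were 84, 0, 0 and 0 over wild-type replicates 1 and 2 and mta replicates 1 and 2 (42 ± 59.4 against 0 ± 0, SD, n = 2 each; exact two-sided permutation p = 1). The groups overlapped at 0.

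The PHOT2 peak lay on chromosome 5 from 23530052 to 23530116 (65 bp, score 48, at or above 44.9% of the list), with its midpoint 91 nt past the stop codon. The bases covered were 65, 0, 0 and 0 in the same order (32.5 ± 46.0 against 0 ± 0, SD, n = 2 each; exact two-sided permutation p = 1). Its place depends on the gene model. Of the 7 coding transcripts annotated for PHOT2, 3 hold the midpoint in an exon: these run on for a 3' UTR of up to 3164 nt, and 3 of the others end at the stop codon with 0 nt of 3' UTR. The distance was 137 nt in the transcript with the longest 3' UTR. No RRACH match lay inside the peak; the nearest, AAACT, ended 47 nt past the stop codon where the peak began at 59 nt, and a URUAY match at 77 nt lay inside it.

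**Figure D2:**
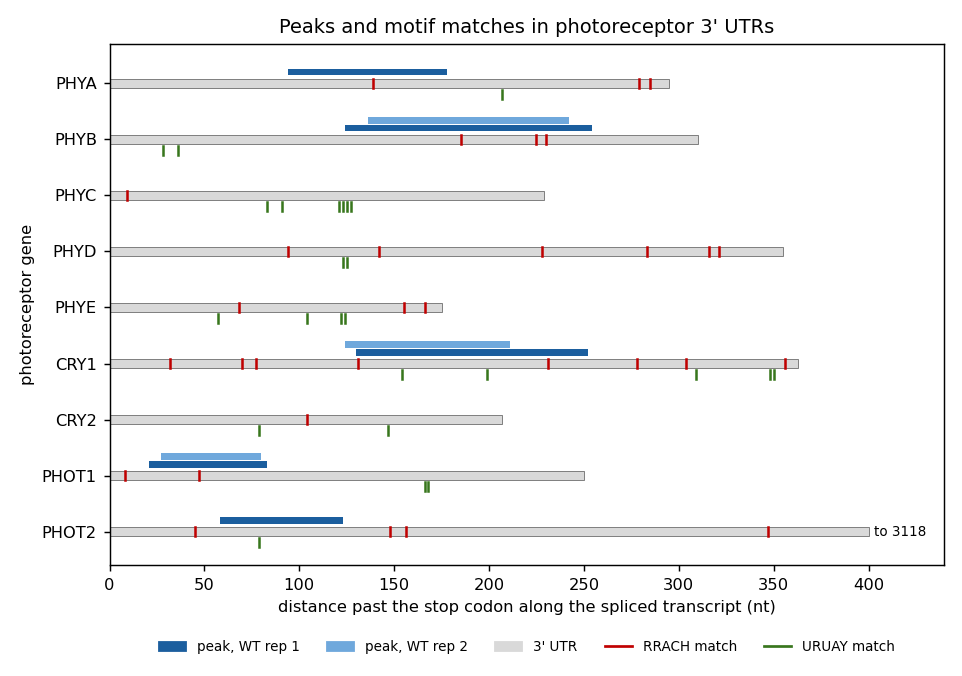
Peaks and motif matches along the 3' UTR of each photoreceptor gene, in nt past the stop codon of the transcript with the longest coding sequence. Grey bars are 3' UTRs (PHOT2 runs to 3118 nt), blue bars the wild-type peaks, and red and green ticks RRACH and URUAY matches; the peaks of PHYB and CRY1 lie well inside the 3' UTR and those of PHOT1 near its start, while the 6 RRACH matches of PHYD carry no peak.

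The 4 photoreceptor genes without a peak had RRACH matches in their 3' UTRs too. PHYD, the close relative of PHYB, had 6 in 355 nt, and PHYE, a phytochrome of shade responses, had 3 in 175 nt. PHYC, which acts together with the other light-stable phytochromes, had 1 in 229 nt, and CRY2, the cryptochrome of dim blue light and of flowering time, had 1 in 207 nt. With a peak, the number was 3 in PHYA, 3 in PHYB, 8 in CRY1, 2 in PHOT1 and 45 in the 3118 nt of PHOT2. Per 100 nt the matches ran from 0.437 in PHYC and 0.483 in CRY2 to 1.71 in PHYE among the genes without a peak, and from 0.80 in PHOT1 to 2.20 in CRY1 among those with one, against 1.19 over all 3' UTRs, so the ranges overlapped. PHYB and PHYD shared 79.3% of coding bases, whereas the other 9 phytochrome pairs shared 59.1 to 65.1%; only PHYB of this most similar pair had a peak.

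Pentamers found inside photoreceptor peaks also stood in photoreceptor 3' UTRs without a peak. The 3 sequences below are shown as examples, with the same marking: PHYD holds the AGACT of PHYB and the GAACT of PHYA, and the 1 match of CRY2 is the AAACA that PHYB carries.
PHYD first match, chr4:9195496-9195520, minus strand: ttatagttggGAACTtttttggttg
PHYD second match, chr4:9195448-9195472, minus strand: ttatagtctcAGACTctcagtcata
CRY2, chr1:1185603-1185627, minus strand: atgattgcatAAACAtataatgctg
A match of 5 letters is common: 67.5% of all 101-nt windows in annotated 3' UTRs hold RRACH and 50.9% hold URUAY. All 8 photoreceptor peaks had RRACH within 50 nt of the midpoint, where 77.0% of all replicate 1 peaks in protein-coding genes and 77.3% of those of replicate 2 did. URUAY was within 50 nt of 3 of the 8, those of CRY1 and PHOT2, against 57.1% and 56.9% of all peaks. Within 25 nt RRACH was found at 5 of the 8, against 55.6% and 57.0%. With so few peaks, nothing particular to the photoreceptors can be read from these shares.

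The photoreceptor peaks lay in 3' UTRs like most wild-type peaks, and 5 of the 8 fell outside the quartiles of distance from the stop codon. The quartiles by definition leave as many peaks outside as between them, so this count is no departure. The 8 peaks also come from only 5 genes. Of all placed peaks, 91.5% were in 3' UTRs in replicate 1 and 90.8% in replicate 2, at a median of 119 and 118 nt past the stop codon. The lower quartile was 79 nt in both and the upper quartile 168 and 169 nt. PHYA and PHOT2 fell between the quartiles of replicate 1, PHYB and CRY1 beyond them, and PHOT1 short of them. In replicate 2 CRY1, at 168 nt, was just inside the upper quartile, PHYB beyond it and PHOT1 again short of the lower one. Widths ran from 53 to 130 bp, around the medians of 88 and 83 bp of the wild-type lists.

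**Figure D3:**
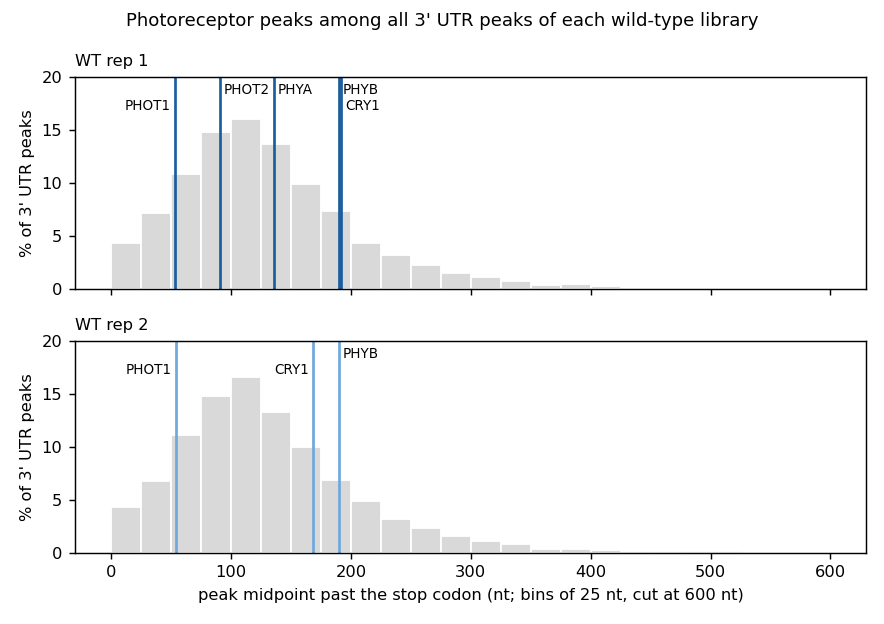
Distance of peak midpoints past the stop codon, in nt, for all 3' UTR peaks of each wild-type library (grey bars, percent of those peaks per 25 nt) with the photoreceptor peaks as vertical lines. PHOT1, at 53 and 54 nt, lies before the bulk of the distribution and PHYB, at 190 nt in both libraries, after it.

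For the contrast of genotypes, 3 of the 9 photoreceptor genes (33.3%) had a peak in both wild-type libraries and in neither mta library, namely PHYB, CRY1 and PHOT1. Over all protein-coding genes 14.0% did so; 18.9% were called in both wild-type libraries and 28.5% in at least 1. Of the 5194 genes called in both wild-type libraries, 74.1% lacked a peak in mta, so 3 of 3 is close to what most genes did. In mta 8.58% of all genes had a peak in either library, a share that corresponds to 0.773 of 9 genes, and 0 of 9 is near that background. Without wild-type replicate 2 a peak in replicate 1 alone was enough on the wild-type side. By this looser rule the count rose to 5 of 9, with PHYA and PHOT2, beside 21.2% of all genes. It fell to 1 of 9 with lists of equal length (3.06% of all genes) and with scores of at least 50 (1.72%). By strand, 4 of the 5 photoreceptor genes on the plus strand had a peak and 1 of the 4 on the minus strand. The share of all genes by strand was not computed, so nothing can be read from these few genes. Whether strand bears on the calls was not tested.

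Peaks close to these genes but outside them were few. Within 1000 nt there were 5, at PHYA, PHYE and CRY2, and 0 lay antisense inside a photoreceptor gene. Next to PHYA, on the opposite strand, GLP5 (AT1G09560), a germin-like protein, had a 3' UTR peak in both mta libraries and in wild-type replicate 1, with scores in mta of 17 and 55, in wild type of 27, and a gap to PHYA of 356 to 377 nt. That region lies in another gene, and peaks were called on each strand apart, so it gives no information on PHYA in mta. A peak of wild-type replicate 1 lay 76 nt beyond the 3' end of PHYE, on the opposite strand, in no annotated exon.

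The genes with the most similar pattern, by distance between score percentiles over the 4 libraries with 0 where there was no peak, were spread over unrelated annotations. For PHYB, AT2G31820, an ankyrin repeat protein, and AT3G43980, a ribosomal protein S14p/S29e family member, had the same percentiles in every library (distance 0). For PHOT1, CIPK3 (AT2G26980), a calcium-regulated protein kinase, did so too; 14 genes tied next at a distance of 1.24, of which PGL1 (AT1G13700) has the lowest identifier, with no peak in wild-type replicate 1. For CRY1, 4 genes tied at 0.412, and AT1G47970 and EMB2769 (AT3G13200) have the lowest identifiers.

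The photoreceptors act through a larger set of genes, for which 79 were listed in 8 groups. Of these, 44 (55.7%) had a wild-type peak beside 28.5% of all genes, 31 (39.2%) had one in both wild-type libraries beside 18.9% of all genes, and 23 of the 31 (74.2%) had none in mta, the same as the 74.1% over all genes called in both. All 81 wild-type peaks lay in 3' UTRs, like those of the photoreceptors. In mta 10 of the 79 genes (12.7%) had a peak, beside 8.58% of all genes. Of the 16 mta peaks 7 were in 3' UTRs, 8 in coding sequence and 1 in a 5' UTR, a split near that of the whole mta lists, where the 3' UTR share was 53.6% and 44.6% and the coding-sequence share 44.0% and 52.0% (replicates 1 and 2).

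**Figure D4:**
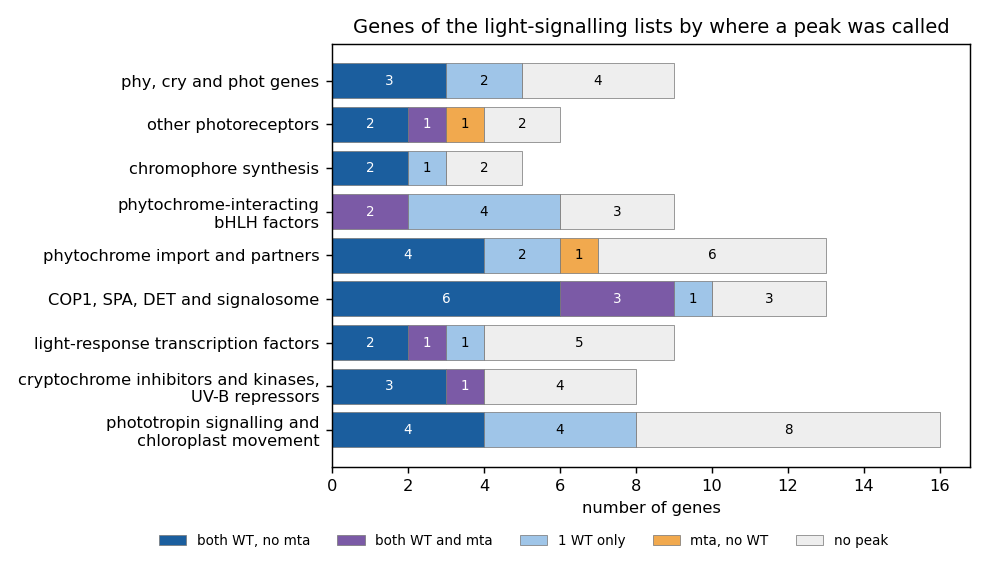
Number of genes in each light-signalling list by the libraries in which a peak was called. The 9 phytochrome, cryptochrome and phototropin genes are the top bar. The COP1, SPA, DET and signalosome list has 9 of 13 genes called in both wild-type libraries and the phytochrome-interacting factors 2 of 9, beside 18.9% of all protein-coding genes.

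Upstream of the phytochromes, 2 of 5 chromophore synthesis genes (40.0%) had a peak in both wild-type libraries, beside 18.9% of all genes. These were HO2 and HO3, related to the heme oxygenase of bilin synthesis. In mta 0 of the 5 had one, beside 8.58% of all genes, which in so short a list is near background. No difference of a list from the all-gene share was tested. Of 13 genes for phytochrome import and partners, 4 (30.8%) were called in both wild-type libraries and in neither mta library, beside 14.0% of all genes. They were FHY1, which carries PHYA into the nucleus, PAPP5, a phytochrome-associated phosphatase, TZP and HMR. AT2G16365, annotated as an F-box family protein, had a coding-sequence peak at nearly the same place in both mta libraries, at -997 and -1001 nt from the last base of the stop codon, and none in wild type.

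Of the 9 phytochrome-interacting factors and relatives, 2 (22.2%) were called in both wild-type libraries, beside 18.9% of all genes. Both of these also had a peak in mta, where 74.1% of all genes called in both wild-type libraries had none. PIF4, which promotes growth in shade and warmth, had 3' UTR peaks in all 4 libraries, with midpoints from 101 to 192 nt past the stop codon in the wild-type libraries, and at 150 and 127 nt in mta. PIF1, a repressor of seed germination, had 3' UTR peaks at 362 and 361 nt in wild type and a coding-sequence peak in mta replicate 2.

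The COP1 group, whose ligase the photoreceptors restrain, had 9 of 13 genes (69.2%) called in both wild-type libraries, beside 18.9% of all genes. Of these 9, 6 had no mta peak, beside 74.1% of all genes called in both wild-type libraries. COP1 itself had 3' UTR peaks of 270 and 191 bp with scores of 108 and 36, and DET1 and DDB1A, which form a complex with COP10, also had none in mta. CSN5A and SPA3 had coding-sequence peaks in 1 mta library each that met no wild-type peak, and COP10 had a 3' UTR peak in mta replicate 2 that overlapped the wild-type ones. Of the 9 light-response transcription factors, HY5 and BBX25 were called in both wild-type libraries and not in mta, and BBX22 had one in mta replicate 2 too. The 3 called in both wild-type libraries were 33.3% of the list, beside 18.9% of all genes.

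Of the cryptochrome inhibitors and kinases with the UV-B repressors, 4 of 8 (50.0%) had a peak in both wild-type libraries, beside 18.9% of all genes. All of them are annotated as protein kinases (AT5G18190, AT3G03940, AT2G25760 and AT3G13670), and AT3G13670 had one in both mta libraries as well. Downstream of the phototropins, 4 of 16 genes (25%) were called in both wild-type libraries, beside 18.9% of all genes. They were JAC1 and CHUP1, which act in chloroplast movement, AT5G50000, a protein kinase, and AT5G67385, a member of the NPH3 family. In mta 0 of the 16 had a peak, beside 8.58% of all genes, which in so short a list is near background. Of the 6 other photoreceptors, 3 (50.0%) had a peak in both wild-type libraries, beside 18.9% of all genes. CRY3 and PLPB (AT2G02710), a PAS/LOV protein, had one in neither mta library. UVR8, the UV-B receptor, had 3' UTR peaks at 157 and 169 nt in wild type and coding-sequence peaks in mta, at -687 and -912 nt from the last base of the stop codon in replicate 1 and at -686 nt in replicate 2. FKF1, a blue-light receptor of flowering time, had 1 peak, in mta replicate 2.

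**Figure D5:**
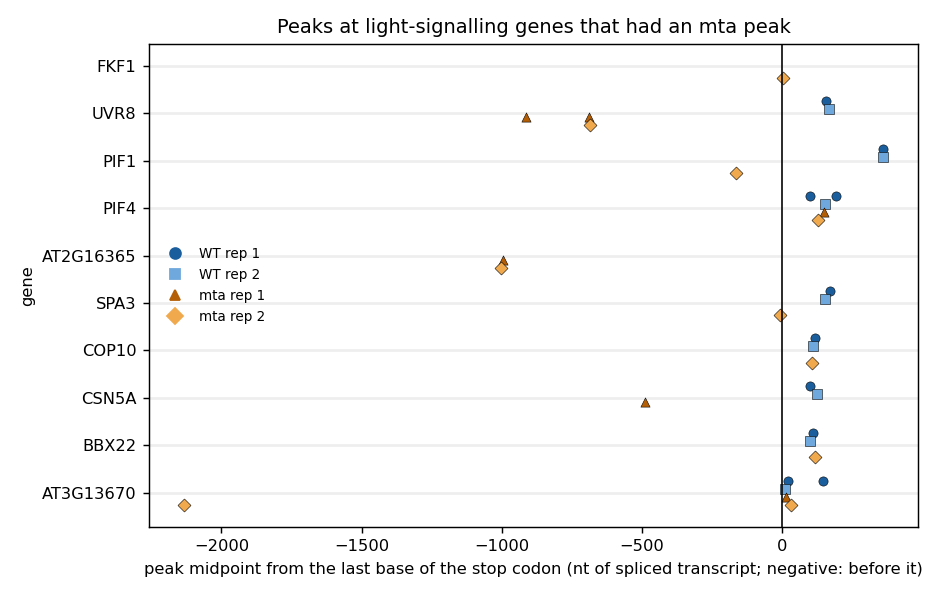
Peak midpoints relative to the last base of the stop codon, in nt of spliced transcript, for the 10 light-signalling genes with an mta peak. These are 12.7% of the 79 listed, beside 8.58% of all protein-coding genes. Blue symbols are wild-type and orange symbols mta libraries; mta peaks overlap wild-type peaks in PIF4, COP10, BBX22 and AT3G13670, while those of UVR8 and AT2G16365 lie in coding sequence, as do 44.0% and 52.0% of all placed peaks in the mta libraries.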

How the data were processed

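Per the labels' protocols, poly(A)+ RNA (7 µg per replicate) was bound with an m6A antibody, crosslinked and made into strand-specific libraries. The labels describe 8 samples; the 4 supernatant libraries were not analysed here. The tools named in the submitters' processing notes are MACS2 and STAR 2.4.0, and the build TAIR10; no control or threshold for MACS2 is given in the sources used here. Each of the 4 deposited lists gives position, strand and a whole-number score per peak, whose scale no header states and whose lowest value is 20 in mta replicate 2 and 13 in the other 3; peak names show that the authors called each library and strand apart. Depth is unknown.

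Midpoints were placed on RefSeq TAIR10.1 exons of the same strand; all 19583 peaks end within their chromosomes there. Midpoints that exons of several genes share were left out. Positions refer to the transcript with the longest coding sequence, and RRACH and URUAY were searched on the gene's strand, overlapping matches included, within 50 nt of midpoints and in 3' UTRs. A score percentile is the share of a list's peaks with an equal or lower score. For bases covered per gene, exact two-sided permutation tests ran over libraries (SciPy 1.17.1); coding identity came from global alignment (Biopython 1.88). Placement was tested on simulated positions.

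Genes named are all 9 photoreceptors and, of each light-signalling list, genes with an mta peak and up to 6 of those called in both wild-type libraries, by score percentile; for members called in both, also the 2 genes nearest in score percentiles. Members and lists were chosen with earlier results of these data known. All 88 listed loci were found in the annotation; genes without a RefSeq name are given by locus. Alternatives covered threshold, list length, assignment, gene model, overlap, motif and each library left out.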

Additional observations from a re-analysis of the deposited data

How the results depend on the processing

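PHYB was called in both wild-type libraries and in neither mta library under every threshold, list length and assignment rule tried. Its score of 50 in wild-type replicate 2 just meets the stricter threshold. A fixed score compares lists of unlike score scale. With scores of at least 50, 1 member was so called (3 with all peaks), 2 had a wild-type peak (5 with all), 1 other light-signalling gene was so called (23 with all), the difference in bases covered was 0 at PHYA, PHOT1 and PHOT2, and the mean difference in the number of peaks was 1835.5 in place of 5765.5. With every list cut to the length of the shortest, these counts were 1, 1 and 5, the difference was 0 at PHYA, CRY1, PHOT1 and PHOT2, and the difference in the number of peaks was 0 by construction. The share of all protein-coding genes called in both wild-type libraries and in neither mta library fell too. It was 14.0% with all peaks, 1.72% with scores of at least 50 and 3.06% with lists of equal length. With 1 library left out, its genotype was judged by the remaining library alone, a looser rule. By that rule 3 to 5 members were called, PHYB among them each time, beside 15.1 to 21.2% of all genes, and 3 to 5 had a wild-type peak. Without wild-type replicate 1 PHYA and PHOT2 had no peak left, so their difference in bases ran from 0 to 84 and from 0 to 65. Thresholds, shortened lists and left-out libraries only remove peaks, so they could not have given a member an mta peak. Assignment by at least 1 bp in an exon could have, and gave 0 members with one. RRACH was within 25 nt of 5 of the 8 peaks and URUAY within 50 nt of 3. All 8 member peaks stayed in the 3' UTR with the transcript of the longest 3' UTR, and the wild-type peaks of 3 members overlapped by at least 50% of the shorter. Replicate numbers are not stated to pair samples; with the replicate block, the exact permutation test gave p = 0.5 for PHYB (difference 118 bases), CRY1 (104.5) and PHOT1 (57.5), the smallest that 2 pairs allow, and p = 1 for PHYA and PHOT2. Alternatives for the number of peaks were chosen after seeing the data. Read depth, unknown here, limits all calls.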

Other observations

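Scores of the photoreceptor peaks were also ranked among peaks of the same strand, an alternative chosen after seeing the data, because peaks were called on each strand apart. In wild-type replicate 2 the highest score was 58 on the plus strand and 50 on the minus strand, and the PHYB peak was at or above 98.1% of plus-strand peaks against 99.0% of all. Both shares count the peaks that tie with PHYB at 50.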
